A study of Mus musculus with 50 samples.

Results

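Rab GTPases are small membrane-associated switches that control where vesicles bud, move and fuse. Exchange factors load a Rab with GTP, the loaded Rab recruits effectors on its membrane, and GTPase-activating proteins return it to the GDP-bound form, in which a GDP dissociation inhibitor can carry it through the cytosol. In mouse oocytes the family is known for vesicle traffic on the actin network, for the cortical granules that are released at fertilisation, and for the endosomes and lysosomes that turn over stored material.

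The family was picked from these same data because many of its members were higher in knockout oocytes. The members were the 63 of 16614 rows of the count table whose gene name is Rab followed by a digit, with the 6 Rab11fip rows left out. Of the 63, 57 are Rab GTPases. A further 4 are proteins that act on Rabs (Rab3gap1, Rab3gap2, Rab3ip and Rab3il1), and 2 are noncoding transcripts (Rab26os and Rab10os). Because the contrast between genotypes chose the family, the members' differences between genotypes are given as a description, and no significance is drawn from them.

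The study sequenced single oocytes at the germinal vesicle stage from floxed females, labelled F/F, and from females with a conditional knockout of Zfp36l2 (labelled cKO), 26 and 24 oocytes from 4 mice each. ZFP36L2 attaches to AU-rich stretches in the 3′ untranslated regions of mRNAs and speeds their decay. All females were 5 weeks old and had received 10 IU of PMSG, a gonadotrophin, 46 hours before collection, and their oocytes were held in meiotic arrest with 5 μM milrinone. The floxed mice gave 5, 7, 7 and 7 oocytes and the knockout mice 1, 7, 8 and 8, so knockout mouse 1 is a single cell. The labels name neither the Cre driver nor the strain, and they do not say how the mice were numbered. The mouse was the replicate and counts were summed over its oocytes. Each level in CPM (counts scaled to a total of 1000000) is a share of an oocyte's or mouse's total count, so a lower share and less RNA per oocyte cannot be told apart.

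Totals ran from 1746007 to 6233840 counts per oocyte and from 4332108 to 44498770 per mouse. Zfp36l2 itself was at 3.27 ± 0.934 CPM in floxed mice against 2.00 ± 0.806 CPM in knockout mice (SD over 4 mice each), which the edgeR test did not separate (log2 fold change −0.78, SE 0.43, adjusted p = 0.21). The count is per gene, and the labels do not say which exons were removed. All 10 oocyte markers were in the table, and their sum was 4679 to 5710 CPM in floxed mice against 4624 to 5176 CPM in knockout mice. Of 12 markers of cumulus and granulosa cells, 10 were in the table, and their sum was 160.3 to 228 CPM in floxed mice against 163 to 291 CPM in knockout mice. The 2 listed markers of blood, immune or endothelial cells that were in the table, Cd68 and Pecam1, summed to 96.3 to 186 CPM in floxed mice against 22.3 to 41.8 CPM in knockout mice, with none of the listed rows at 0 in all mice. The part of these markers in the results on Rabs was not tested.

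The 3′ untranslated regions of the Rab GTPases were searched for TATTTAT, the DNA spelling of the AU-rich element to which proteins of the ZFP36 family bind, on the sense strand only. It was present in 20 of 57 (35.1%), beside 27.7% of the 13794 tested genes for which the annotation gives such a region. The Rab regions were also longer, with a median of 1949 bases against 989, and per kilobase the motif was about as frequent (0.268 in Rabs and 0.289 in all tested genes). It was present in 5 of the 14 Rab GTPases called higher in knockout oocytes (the rule for a call is given below the sequences), in 1 of the 6 called lower, in 13 of the 32 that were not called and in 1 of the 5 that were not tested. Over all tested genes with such a region, the motif was in 31.9% of those called higher, 25.1% of those called lower and 27.4% of those not called. The regions of these 3 sets also differed in length, with medians of 1236, 918 and 958.5 bases. Per kilobase the motif was about as frequent in each (0.29, 0.276 and 0.292). Most Rab GTPases called higher, Rab34, Rab37 and Rab20 among them, held no TATTTAT in the annotated region. The sites are shown, with 10 bases on either side, for the 5 higher members and the 1 lower member that held the motif, and for Rab3a, which held 4 copies and was not called. Rab18, also not called, held the most copies (6), and its sites are not shown. The stretch from Rab3a holds 3 overlapping copies of the 4. Capitals mark the motif.
Rab1: agaaataataTATTTATttcggtgaaa
Rab33b: ttcattttagTATTTATtaatcaaaac
Rab30: aagtaatttgTATTTATttaaatagaa
Rab40c: ggctccccttTATTTATatggagaaca
Rab5b: tttcccatttTATTTATctggtaagag
Rab23: ttcaaatttgTATTTATgacatcttgt
Rab3a: tgtagcTATTTATTTATTTATtgagga
The sequences are the transcript strand in the GENCODE annotation of mm10. They lie at chr11:20226421-20226447 (plus strand, Rab1), chr3:51495445-51495471 (plus, Rab33b), chr7:92843966-92843992 (plus, Rab30), chr17:25883345-25883371 (minus, Rab40c), chr10:128678985-128679011 (minus, Rab5b), chr1:33740088-33740114 (plus, Rab23) and chr8:70758150-70758176 (plus, Rab3a). A match of letters does not show that the protein binds there. TATTTATT, a longer form that contains TATTTAT, was in 11 of 57 Rab GTPases (19.3%) and 15.3% of all tested genes, and the pentamer ATTTA, which lies inside both, in 49 of 57 (86.0%) and 67.1%.

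In floxed oocytes the pool of Rab mRNA was dominated by endosomal and secretory members. Levels were compared between genes only after division by transcript length, as counts per kilobase scaled to a total of 1000000 per mouse. Rab7, which drives late endosomes towards lysosomes, was highest at 434 ± 16.4 per 1000000 (SD, n = 4), followed by Rab38 at 341 ± 25.9, a Rab of lysosome-related organelles such as melanosomes. Next came Rab14, which works between endosomes and the Golgi, at 234 ± 21.6, and Rab11a, the Rab of recycling endosomes, at 214 ± 55.9. The rest of the 10 highest were Rab3d (159.5 ± 11.7), Rab4a (155 ± 49.2), Rab32 (149 ± 12.1), Rab2a (138 ± 36.4), Rab9 (109.8 ± 13.0) and Rab8a (103 ± 5.24). These 10 held 62.8% ± 1.48 of the length-scaled Rab level in floxed mice and 56.8% ± 0.557 in knockout mice (SD, n = 4 each).

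In the order of floxed levels, no floxed mouse overlapped between Rab7 and Rab38, between Rab38 and Rab14, or between Rab11a and Rab3d. The neighbours from Rab3d down to Rab10 each overlapped, and of these pairs only Rab2a and Rab9 stood in the same order within all 4 floxed mice. With the mean transcript length of a gene in place of its longest transcript, 9 of the 10 stayed among the 10 highest, but Rab11a moved from place 4 to place 1 (412 per 1000000 beside 409 for Rab7), and Rab3b took the place of Rab2a. Which transcript forms the oocytes hold was not measured.

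**Figure D1:**
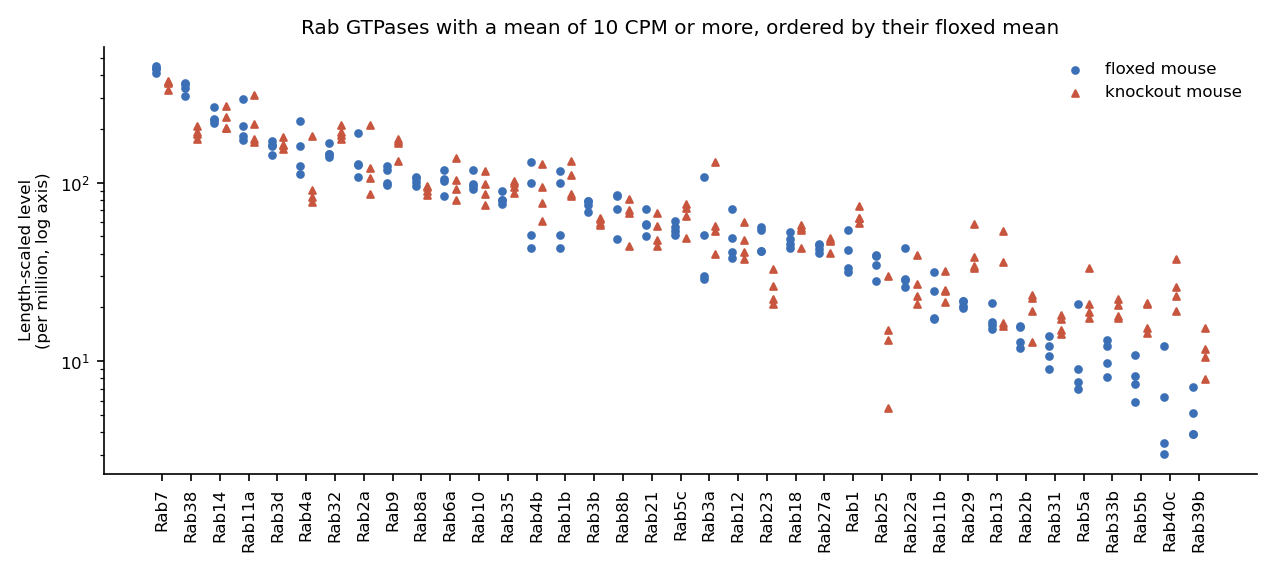
Length-scaled level (counts per kilobase of transcript, scaled to 1000000 per mouse, log axis) of the 37 Rab GTPases with a mean of 10 CPM or more, ordered by floxed mean; each circle is a floxed and each triangle a knockout mouse. Rab7 and Rab38 stand above the rest in floxed mice, and most members from Rab29 down the order are higher in knockout mice. Rab29, Rab13, Rab5b, Rab40c and Rab39b had floxed means under 10 CPM and passed that bound only through the knockout mice. The choice of members therefore tilts this end of the order towards higher knockout levels.

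The summed level of the 57 Rab GTPases was about equal in the genotypes. It was 3832, 3237, 3133 and 3124 CPM in floxed mice 1 to 4 and 3704, 3188, 3096 and 3136 CPM in knockout mice 1 to 4. The means were 3332 ± 338 and 3281 ± 284 CPM (SD, n = 4 each), and in both genotypes mouse 1 was highest and stood apart from the other 3. By role, Rabs of the endoplasmic reticulum and Golgi summed to 511 ± 86.3 CPM in floxed mice against 594 ± 70.3 CPM in knockout mice. Rabs of recycling endosomes summed to 758 ± 165 and 736 ± 143 CPM, and those of secretion to 886 ± 25.3 and 856 ± 34.9 CPM. Those of early endosomes summed to 277 ± 55.7 and 298 ± 46.8 CPM. The mice of the 2 genotypes overlapped in each of these 4 sums. They did not overlap in the other two: Rabs of late endosomes and lysosomes summed to 438 ± 10.0 and 409.8 ± 23.1 CPM, and the 7 members with other functions, Rab38 among them, to 461 ± 19.5 and 386 ± 22.5 CPM, with the knockout mice lower in both.

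Most of the family was present in each cell. At least 1 count was found in all 50 oocytes for 36 of the 57 Rab GTPases. An oocyte held counts for 40 to 50 of them in floxed (median 47) and 46 to 52 in knockout mice (median 49). When each oocyte was thinned to 3000000 counts, which left out 3 shallower floxed oocytes, the medians were the same, 47 and 49. Rab19, Rab15 and Rab39 had 0 counts in all floxed oocytes, and 25, 52 and 14 counts in the knockout oocytes together. Those counts lay in only 4, 7 and 1 of the 24 knockout oocytes. Rab17 and Rab27b had 2 and 1 counts in the floxed oocytes and 19 and 47 in the knockout oocytes, where they lay in 1 and 9 of 24 oocytes. These 5 were too low to enter the test across genes, so 52 of the 57 were tested.

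Between genotypes the Rab GTPases changed in both directions. The members with a log2 fold change above 2 or below −2 had means of at most 15.5 CPM over the 8 mice, and among members at 50 CPM or more the values ran from −0.98 (Rab23) to 0.64 (Rab1). A gene was called higher or lower in knockout oocytes when its adjusted p in edgeR's quasi-likelihood test over 15029 genes was under 0.05. By that rule 14 of the 52 tested Rab GTPases were called higher, 6 lower and 32 in neither direction, beside 14.4% of all tested genes called higher and 13.2% called lower (27.6% in either direction). Their median log2 fold change was 0.15, and that of all tested genes −0.01. The knockout mice all lay above the floxed mice for 16 of the 52 and all below for 6, beside 16.0% and 15.0% of all tested genes. Since the family was picked for this contrast, nothing is read from the difference between its share and that of all genes. Over all 63 rows, 58 were tested, 15 were called higher and 7 lower.

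The calls were spread unevenly over abundance. Below a mean of 10 CPM over the 8 mice, 6 of 15 tested members were called higher and 1 lower (all genes in that range: 12.5% and 10.4%). Between 10 and 50 CPM, 5 of 14 were called higher and none lower by edgeR (all genes: 20.2% and 14.6%). Of those 5, Rab29, Rab40c, Rab39b and Rab5b had floxed means under 10 CPM and reached this range only through the knockout mice. At 50 CPM or more, 3 of 23 were called higher and 5 lower (all genes: 12.2% and 14.8%). By role, 5 of 14 tested Rabs of the endoplasmic reticulum and Golgi were higher and 1 lower, 2 of 8 of the early endosome were higher, 2 of 5 of the late endosome and lysosome were higher and 1 lower, and 1 of 11 of secretion was higher and 2 lower. Of the 7 members with other functions, 4 were called higher and 2 lower. Of the 7 tested Rabs of recycling endosomes, none was called with every mouse in the fit. Without mouse 1 of either genotype, Rab4a and Rab25 were called lower. These groups by role are small, and with every mouse 27.6% of all tested genes were called in either direction.

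**Figure D2:**
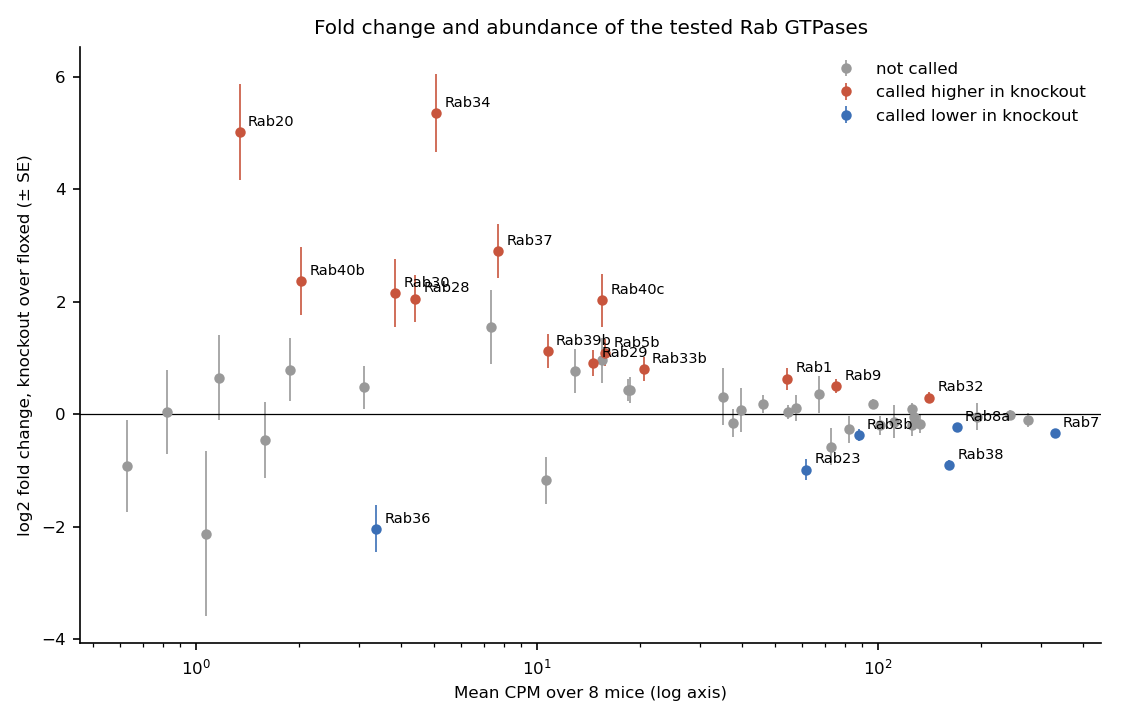
Log2 fold change, knockout over floxed, with its standard error, against the mean CPM over 8 mice (log axis) for the 52 tested Rab GTPases, coloured by call. The members with a log2 fold change above 2 lie at or below about 15.5 mean CPM, and Rab7, the most abundant, lies just below 0.

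Rab34 showed the highest fold change of the family. It is known for its place at the Golgi and in the formation of cilia, and lies at chr11:78188430-78192193 (mm10). Its level was 0.601, 0.0816, 0.130 and 0.186 CPM in floxed mice 1 to 4 and 3.23, 13.7, 12.5 and 10.1 CPM in knockout mice 1 to 4. Each knockout mouse was above each floxed mouse, and mouse 1, the single cell, was the lowest of the knockouts. Counts were present in 8 of 26 floxed and 24 of 24 knockout oocytes. The log2 fold change was 5.35 (SE 0.70), and over the alternative fits it ran from 2.98 to 6.37, always called. The kept call adds no support, as Rab34, with 25 floxed counts in all, entered the test only through the knockout mice. Its closest relative in the family, Rab36 (chr10:75037058-75054748), went the other way. It was at 4.66, 5.92, 4.15 and 6.57 CPM in floxed mice against 2.31, 1.55, 0.966 and 0.847 CPM in knockout mice, with counts in 24 of 26 and 11 of 24 oocytes. The log2 fold change of Rab36 was −2.04 (SE 0.42), and the mice did not overlap. Of the length-scaled level of this pair, Rab34 made up 6.92% ± 6.62 in floxed and 88.0% ± 13.0 in knockout mice (SD, n = 4 each).

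A second scarce member, Rab20, found on endosomes and phagosomes, was near 0 in floxed mice (0.250, 0, 0.0522 and 0.0310 CPM; 8 counts in all, in 3 of 26 oocytes). It was at 1.85, 3.04, 3.57 and 1.95 CPM in knockout mice, with counts in 17 of 24 oocytes. Its log2 fold change of 5.02 (SE 0.86) rests on those few floxed counts and ran from 1.37 to 6.31 over the alternative fits. Like Rab34, it entered the test only through the knockout mice. Rab37, a Rab of secretory granules, was at 2.80, 0.490, 1.80 and 2.08 CPM in floxed mice against 9.23, 14.4, 13.1 and 17.7 CPM in knockout mice, 7.45-fold higher (log2 2.90, SE 0.48). For Rab37, too, the groups of mice did not overlap, and all 24 knockout oocytes held counts, against 20 of 26 floxed oocytes. Because the library kit does not mark strand, the exons that Rab20 shares with an RNA gene on the opposite strand (356 of 1392 bases) could take counts from either gene.

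Among members with a mean of at least 10 CPM, 3 were called with a log2 fold change of 1 or more. All 3 had floxed means under 10 CPM and reached that bound only through the knockout mice, so the bound favours this direction. Rab40c, which carries a SOCS box and recruits a ubiquitin ligase, lies at chr17:25882114-25919727. It was at 12.2, 3.35, 5.79 and 2.82 CPM in floxed mice against 36.2, 21.8, 24.3 and 17.9 CPM in knockout mice (log2 fold change 2.03, SE 0.47). Floxed mouse 1 was the highest of its genotype, and knockout mouse 1 the highest of all. Rab39b (chrX:75572046-75578231), an X-linked Rab studied mainly in neurons, was at 9.92, 6.82, 4.96 and 5.05 CPM in floxed mice against 10.6, 13.7, 15.0 and 19.9 CPM in knockout mice (1.12, SE 0.30). Rab5b (chr10:128677175-128696264), 1 of 3 Rab5 forms that govern fusion of early endosomes, was at 7.61, 9.27, 12.8 and 9.98 CPM in floxed mice against 18.0, 18.5, 25.4 and 25.3 CPM in knockout mice (1.10, SE 0.24). In each of the 3 genes, every knockout mouse lay above every floxed mouse. The call for Rab39b did not hold when floxed mouse 2, 3 or 4 or knockout mouse 2, 3 or 4 was left out.

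The other members called higher ranged from scarce to abundant, and Rab9, Rab29 and Rab32 among them are given further below. Rab28, an atypical Rab linked to cilia, was at 1.68 ± 1.05 CPM in floxed mice against 7.09 ± 0.396 CPM in knockout mice (SD over 4 mice each), and Rab30, of the Golgi, at 1.39 ± 1.07 and 6.30 ± 2.18 CPM. Rab40b, a relative of Rab40c, was at 0.647 ± 0.386 and 3.41 ± 1.72 CPM. Rab33b, a Golgi Rab that also acts in autophagy, was at 14.7 ± 3.43 and 26.4 ± 3.44 CPM. Rab1, the chief Rab of traffic from the endoplasmic reticulum to the Golgi, was 1.55-fold higher (41.7 ± 12.4 and 66.3 ± 6.31 CPM). The call for Rab1 did not hold in 7 of the 14 alternative fits, those without floxed mouse 2, 3 or 4 or without any of the 4 knockout mice. Its near copy Rab1b was at 58.0 ± 29.0 and 76.0 ± 18.2 CPM and was not called. All of these called genes had every knockout mouse above every floxed mouse, with the folds of Rab28, Rab30 and Rab40b all above 4.

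The 2 noncoding rows were low. Rab26os was called higher (0.394 ± 0.219 and 1.52 ± 0.652 CPM), although its mice overlapped, and Rab10os was not called (1.69 ± 1.31 and 1.09 ± 0.539 CPM). Rab10os shares 143 exon bases with Rab10 on the opposite strand, so counts of the pair cannot be told apart there.

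**Figure D3:**
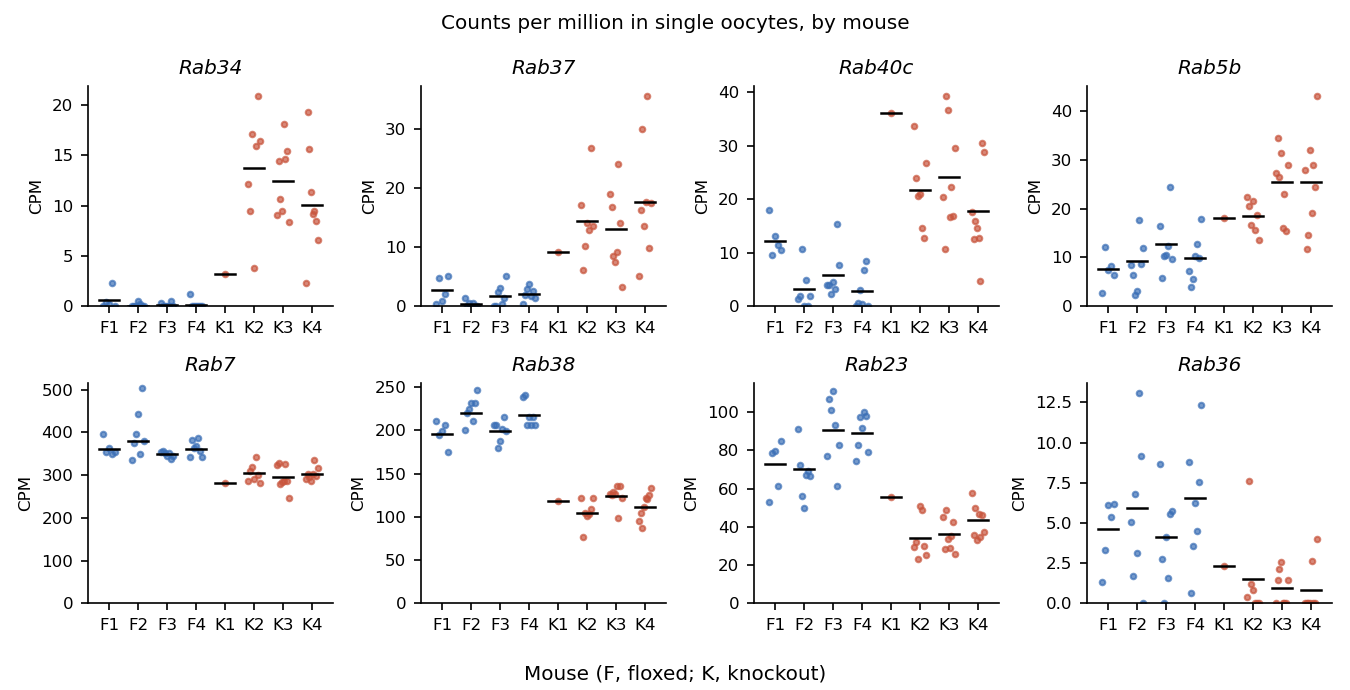
CPM in single oocytes of 4 floxed (F) and 4 knockout (K) mice for 8 Rab GTPases; each point is an oocyte and each black line the level from the summed counts of a mouse. In Rab34, Rab37, Rab40c and Rab5b the lines of all knockout mice lie above those of all floxed mice, and in Rab7, Rab38, Rab23 and Rab36 below.

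Of the 6 members called lower, 5 had a mean of 50 CPM or more, and for Rab38 and Rab23 the floxed level was nearly 2 times the knockout level. Rab38 (chr7:88430273-88491572) was at 196, 219.8, 199 and 218 CPM in floxed mice against 119, 105, 125 and 112 CPM in knockout mice, 1.86-fold lower (log2 −0.90, SE 0.09). Not only the mice but also the single oocytes were apart, at 176 to 246 CPM (median 207) in floxed and 77.0 to 136 CPM (median 121) in knockout mice. Rab23, a negative regulator of Hedgehog signalling, was at 73.1, 70.4, 90.7 and 89.2 CPM in floxed mice against 55.6, 34.1, 36.4 and 43.4 CPM in knockout mice (−0.98, SE 0.18). Rab7 (chr6:87999106-88045270) was at 362, 379, 349 and 362 CPM in floxed mice against 281, 305, 296 and 303 CPM in knockout mice (−0.33, SE 0.06). None of these 3 genes had overlapping mice, and each kept its call in all 14 alternative fits. The 3 are given here because they were called, so both traits largely follow from that choice and add no support.

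Smaller decreases were seen in Rabs of secretion. Rab8a, which serves traffic from the Golgi to the plasma membrane, was at 178, 180.0, 182 and 185 CPM in floxed mice against 152, 155, 163 and 167 CPM in knockout mice (−0.22, SE 0.07). Rab3b, of regulated exocytosis, was at 97.6 ± 5.11 and 77.8 ± 4.16 CPM (−0.37, SE 0.10). In both genes every knockout mouse lay below every floxed mouse, but the folds were small (1.17 for Rab8a and 1.29 for Rab3b, floxed over knockout). The call for Rab8a did not hold in 6 of the 14 alternative fits, among them those without floxed mouse 2, 3 or 4 or without knockout mouse 2 or 3.

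The secretory Rabs that are known from work on cortical granules were not called. Rab3a was at 63.0, 28.7, 16.1 and 15.8 CPM in floxed mice against 74.3, 31.4, 21.9 and 29.6 CPM in knockout mice, with mouse 1 far above the others in both genotypes. Rab27a, which tethers secretory granules, was at 52.3, 56.1, 52.8 and 51.0 CPM in floxed mice against 60.9, 57.7, 56.6 and 48.7 CPM in knockout mice. Rab3d, the most abundant Rab3 form, was at 256, 243, 249 and 213 CPM and 274, 228, 240.3 and 242 CPM. The groups of mice overlapped in all 3. The log2 fold changes were 0.31 (SE 0.51), 0.04 (SE 0.12) and −0.01 (SE 0.08), so the data leave less room for a change in Rab3d and Rab27a than in Rab3a.

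None of the 7 tested Rabs of endosomal recycling was called with every mouse in the fit, and the means of Rab25 and Rab4a were lower in knockout mice. Rab11a (chr9:64715299-64737758) was at 281, 189, 151 and 162 CPM in floxed mice against 283, 190.0, 151 and 157 CPM in knockout mice, a log2 fold change of −0.04 (SE 0.24). Rab11b was at 79.1, 59.2, 39.3 and 40.3 CPM and 76.9, 57.1, 49.6 and 58.1 CPM (0.11, SE 0.24). Rab14 (chr2:35180205-35201120) was at 333, 271, 249 and 268 CPM and 326, 275, 237 and 239 CPM (−0.10, SE 0.13). In all 3 the mice of the genotypes overlapped. Rab25, a relative of Rab11a best known from epithelia, was at 15.2, 11.9, 15.6 and 16.1 CPM in floxed mice against 2.31, 6.14, 12.4 and 5.41 CPM in knockout mice (−1.17, SE 0.42). Knockout mouse 3 overlapped the floxed mice for Rab25, and the gene was not called. Rab4a, of fast recycling, was at 128, 89.1, 66.1 and 60.3 CPM and 102, 41.9, 44.8 and 49.2 CPM (−0.58, SE 0.33). Its level in knockout mouse 1 lay inside the floxed range and those of the other 3 knockout mice below it. Rab35, which acts between endosomes and the plasma membrane, had every knockout mouse above every floxed mouse (92.3, 83.4, 95.1 and 85.3 CPM and 97.0, 101, 109.9 and 108 CPM) without a call (0.19, SE 0.09).

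On early endosomes, Rab5a was at 20.1, 6.49, 7.93 and 6.85 CPM in floxed mice against 30.9, 16.9, 18.8 and 15.7 CPM in knockout mice (0.96, SE 0.41), and was not called; floxed mouse 1 lay among the knockout mice. The third form, Rab5c, was at 42.5 ± 4.44 and 49.3 ± 8.53 CPM (SD, n = 4 each) and was not called. Rab5c made up 74.7% ± 4.16 of the length-scaled Rab5 level in floxed and 61.5% ± 7.30 in knockout mice. In the Golgi group, Rab2a was at 166, 89.5, 101 and 103 CPM and 177, 98.5, 85.9 and 70.7 CPM (−0.13, SE 0.29), and Rab6a, which works in retrograde traffic, at 155, 106, 126 and 125 CPM and 174, 126, 113 and 97.7 CPM (−0.05, SE 0.18). In both, the mice overlapped widely. Rab6a shares 708 of its 3728 exon bases with Mrpl48 on the opposite strand. Rab24, linked to autophagy, shares 1258 of 2015 exon bases with Prelid1, so its level (3.62 ± 2.66 and 11.0 ± 9.94 CPM) may not be its own.

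Late endosomal members went in both directions. Rab9, which returns receptors from late endosomes to the Golgi, was at 57.6, 56.6, 66.8 and 64.8 CPM in floxed mice against 74.8, 93.7, 96.9 and 91.7 CPM in knockout mice (0.50, SE 0.12), with no overlap. Rab7b was at 0.898 ± 1.02 and 1.44 ± 0.475 CPM and Rab9b at 2.56 ± 0.888 and 3.65 ± 0.819 CPM, and neither was called. Summed over the 5 members of the group, the level was 431, 449.9, 428 and 442 CPM in floxed mice against 376, 419.8, 417 and 426 CPM in knockout mice, so that each knockout mouse lay below each floxed mouse. Per transcript length, the same sum overlapped (567 ± 24.7 and 564 ± 43.7 per 1000000, SD over 4 mice each).

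The subfamily of Rab32, Rab38 and Rab29, which serves lysosome-related organelles, changed its composition. Rab32 was at 146, 122, 116 and 114 CPM in floxed mice against 148, 152, 156 and 173 CPM in knockout mice (0.30, SE 0.10), and Rab29 at 10.2, 10.4, 9.02 and 10.2 CPM and 16.4, 15.6, 17.9 and 27.4 CPM (0.92, SE 0.24). Both were called higher while Rab38 was called lower. Per transcript length, Rab38 made up 66.6% ± 3.23 of the 3 in floxed and 45.1% ± 3.26 in knockout mice, Rab32 29.3% ± 3.22 and 45.2% ± 1.78, and Rab29 4.10% ± 0.118 and 9.64% ± 2.13 (SD, n = 4 each). No mouse overlapped between genotypes in any of these shares. The call for Rab32 was the least stable of the family: it did not hold in 8 of 14 alternative fits, among them those without floxed mouse 2, 3 or 4 or without any of the 4 knockout mice.

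**Figure D4:**
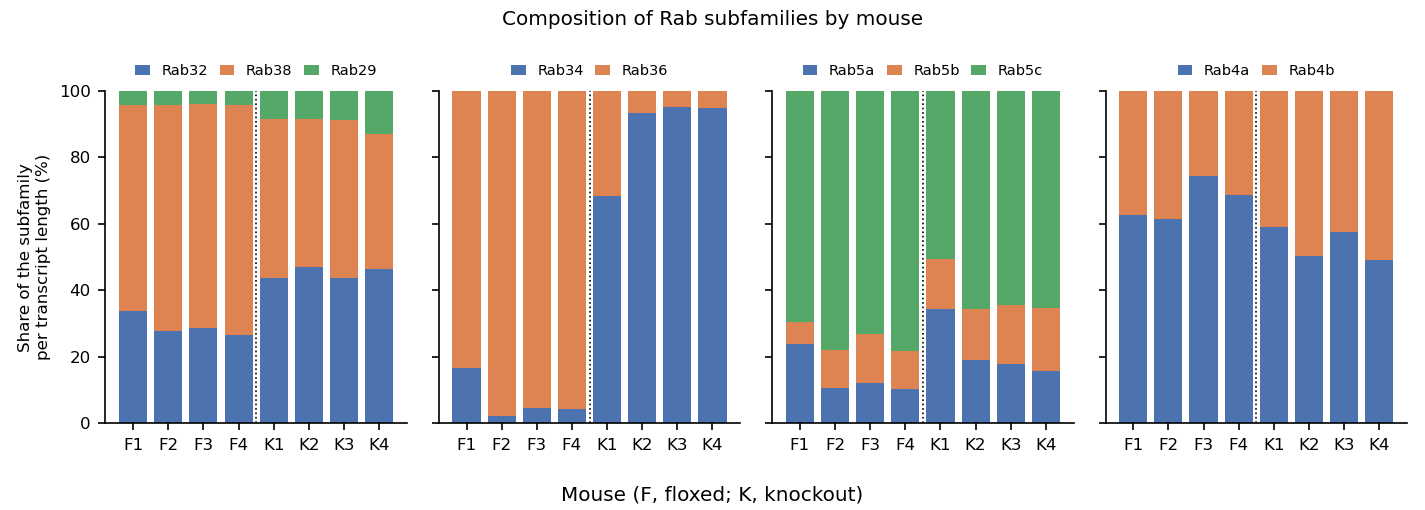
Share of the length-scaled level of 4 Rab subfamilies held by each member, in percent, for floxed mice 1 to 4 (F) and knockout mice 1 to 4 (K). Rab38 falls from 66.6% to 45.1% of its subfamily on average, Rab34 rises from 6.92% to 88.0% of its pair, and in the Rab5 and Rab4 subfamilies the shifts are smaller.

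Oocytes of the same mouse varied little in the abundant members and more in the scarce ones. Spread between cells was taken as the SD of log2(CPM + 1) over the oocytes of each mouse, averaged over the 4 floxed and 3 of the knockout mice. Over the 37 Rab GTPases with a mean of 10 CPM or more its median was 0.293 in floxed and 0.283 in knockout mice, beside 0.293 and 0.302 for all 9704 genes above that level. With oocytes thinned to 3000000 counts the medians were 0.250 in floxed and 0.306 in knockout mice, and the order of the genotypes turned. Thinning left out 3 shallower floxed oocytes and no knockout oocyte, so the floxed medians with and without it are over different sets of cells. Rab7 was lowest in floxed mice (0.094), and Rab7 and Rab14 were lowest in knockout mice, at 0.104 each. Rab40c was highest in floxed mice and Rab25 in knockout mice, both at 0.935. These upper values depend on the pseudocount: with 5 in place of 1, Rab40c was at 0.484, below Rab4b (0.510), and Rab25 was at 0.586.

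A further pattern, noticed after the values were seen, did not follow genotype. For 19 of the 52 tested Rab GTPases mouse 1 was the highest of its genotype among both floxed and knockout mice, and for 8 it was the lowest in both. Over all tested genes, mouse 1 was highest in both genotypes for 20.7% and lowest in both for 22.4%. The mice numbered 2, 3 and 4 were highest in both for 2, 5 and 3 Rab GTPases. The 19 members were Rab28, Rab1b, Rab2a, Rab3a, Rab24, Rab11a, Rab33b, Rab22a, Rab6a, Rab40c, Rab10, Rab4b, Rab11b, Rab14, Rab4a, Rab5a, Rab21, Rab12 and Rab3d, which take in most of the recycling group.

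In single cells the pattern was complete for 4 of the 19: every oocyte of mouse 1 was above every other oocyte of its genotype, in floxed and in knockout mice, for Rab22a, Rab2a, Rab3a and Rab4a. In knockout mice this rests on 1 oocyte. The 19 were chosen because mouse 1 was highest, and the share of all genes with such a separation was not computed. For the other 15, oocytes of mouse 1 overlapped those of other mice in at least 1 genotype. For Rab22a, an endosomal Rab, the 5 oocytes of floxed mouse 1 were at 122 to 130.1 CPM and the other 21 floxed oocytes at 54.4 to 87.1 CPM. The oocyte of knockout mouse 1 was at 110.1 CPM and the other 23 at 40.7 to 91.4 CPM. Rab3a was at 55.4 to 85.1 CPM in floxed mouse 1 and 7.54 to 53.1 CPM in the other floxed oocytes, and at 74.3 CPM in knockout mouse 1 and 7.26 to 44.1 CPM in the others. The markers of cumulus and granulosa cells summed to 160.3 CPM in floxed mouse 1 and to 163 CPM in knockout mouse 1, the lowest of each genotype (the others: 176 to 228 and 216 to 291 CPM). The median total of the oocytes of mouse 1 was 4234360 counts in floxed mice (the others: 3370800 to 5217900) and 4332110 counts in knockout mice (the others: 4703350 to 5626430). The part of these in the pattern was not tested, and the labels do not say whether mice with the same number share anything.

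**Figure D5:**
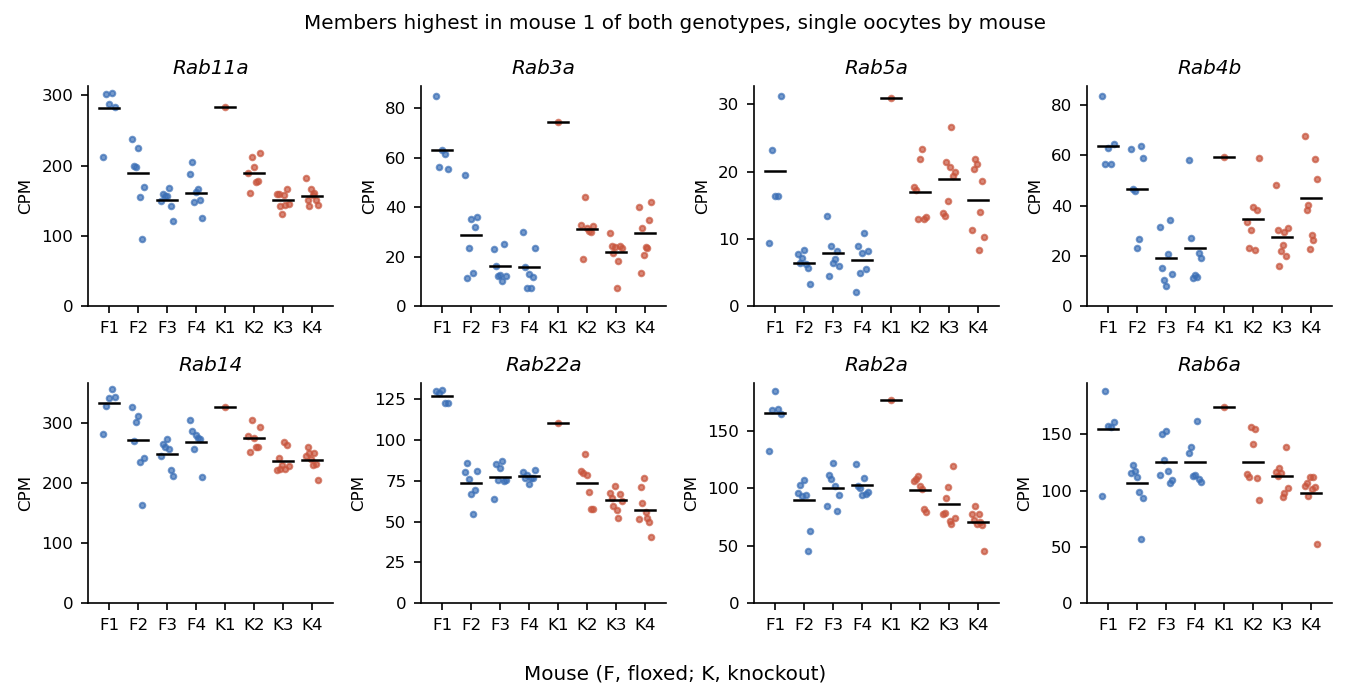
CPM in single oocytes of 4 floxed (F) and 4 knockout (K) mice for 8 of the 19 Rab GTPases whose summed level was highest in mouse 1 of both genotypes; points are oocytes and black lines the level from the summed counts of a mouse. Knockout mouse 1 is a single oocyte.

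Without mouse 1 of either genotype, 17 of 52 Rab GTPases were called higher and 9 lower, beside 20.8% and 23.1% of the 15332 genes tested in that fit. All 20 members called with every mouse were called in the same direction without mouse 1. The additional calls were Rab5a, Rab2b and Rab24 (higher) and Rab4a, Rab25 and Rab6b (lower). Rab5a then had a log2 fold change of 1.19 (SE 0.20), and Rab4a one of −0.76 (SE 0.17).

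Of the 20 calls, 10 held in all 14 alternative fits: Rab34, Rab20, Rab37, Rab28, Rab40c and Rab5b (higher) and Rab38, Rab23, Rab36 and Rab7 (lower). None reversed. The number called higher fell from 14 to 9 without floxed mouse 2 or 3, to 8 without floxed mouse 4 and to 7 without knockout mouse 2 or 3. Of the other 10 calls, that for Rab32 was lost in 8 fits, for Rab1 in 7 and for Rab39b and Rab8a in 6. Rab30 and Rab33b lost theirs in 4 fits (without floxed mouse 2 or 4 or knockout mouse 2 or 3), and Rab40b in 4 (without floxed mouse 3 or 4 or knockout mouse 2 or 3). Rab3b lost its call in 3 (without floxed mouse 2 or 4 or knockout mouse 3), Rab9 in 2 (without knockout mouse 2 or 3) and Rab29 in 2 (without floxed mouse 3 or knockout mouse 4). Of the rows that are no GTPases, Rab26os lost its call in 7 fits and Rab3gap2 in 2.

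The proteins that switch Rabs on and off were not used to choose the family, and were compared between genotypes with the same edgeR test. Their lists were, however, drawn up with earlier results of these data known. The genes named by rule are the called genes with the smallest p-values of each list, so their adjusted p-values are given as a description. Of all tested genes, 14.4% were called higher and 13.2% lower, and the count in each list stands against those shares. Of 48 tested subunits of exchange factors, 4 rose and 5 fell (median log2 fold change −0.03). Gapvd1, an exchange factor for Rab5, rose from 70.8, 67.6, 78.6 and 59.5 CPM in floxed to 104, 119, 120.1 and 115 CPM in knockout mice (0.69, SE 0.11, adjusted p = 0.0022). Hps1, a subunit of the exchange factor for Rab32 and Rab38, rose from 6.73 ± 3.10 to 22.6 ± 9.78 CPM (1.71, SE 0.39, adjusted p = 0.012). Its partner Hps4 was at 16.3 ± 4.85 and 26.2 ± 8.42 CPM and did not pass the edgeR test (adjusted p = 0.13). It was looked up after the value of Hps1 was seen. St5, of the DENN family, fell from 20.5 ± 5.73 to 6.63 ± 1.04 CPM (−1.67, SE 0.26, adjusted p = 0.0022). Sbf2, of the same family, fell from 107 ± 6.20 to 56.8 ± 17.5 CPM (−0.96, SE 0.19, adjusted p = 0.0065).

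Among 33 tested GTPase-activating proteins, which share the TBC domain, 8 rose and 2 fell (median 0.02). Tbc1d2b rose from 22.1, 15.1, 27.9 and 20.5 CPM in floxed to 52.4, 51.5, 51.4 and 49.6 CPM in knockout mice, with no overlap and a narrow knockout range (1.22, SE 0.19, edgeR adjusted p = 0.0022). Tbc1d22a rose from 7.19 ± 0.500 to 14.7 ± 1.41 CPM (edgeR adjusted p = 0.008) and Evi5l from 2.67 ± 1.40 to 8.44 ± 1.70 CPM (adjusted p = 0.012). Rabgap1l fell from 56.7 ± 8.31 to 31.0 ± 5.32 CPM (edgeR adjusted p = 0.006). The regulators of Rab3 and Rab8 that carry Rab in their names belong to the members chosen by name. Of them, Rab3gap2, a subunit of the complex that inactivates Rab3, was called lower (234 ± 31.9 and 174 ± 12.3 CPM). Its partner Rab3gap1 was at 315 ± 53.4 and 258 ± 26.5 CPM and was not called. Rab3ip (38.1 ± 20.7 and 57.2 ± 22.4 CPM) and Rab3il1 (171 ± 24.0 and 179 ± 17.5 CPM), which activate Rab8, were not called either. Rab3gap2 shares 2034 of 10800 exon bases with Iars2 on the opposite strand.

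Of 8 tested genes for lipid modification and extraction of Rabs, 1 rose and 1 fell, near the 14.4% and 13.2% of all tested genes. Chm, the escort protein that presents new Rabs for prenylation, rose from 12.6, 8.33, 14.6 and 10.3 CPM in floxed to 17.1, 29.6, 27.8 and 25.6 CPM in knockout mice (1.09, SE 0.25, edgeR adjusted p = 0.012). Rabif, a chaperone for nucleotide-free Rabs, fell from 116, 113, 97.4 and 92.7 to 82.4, 74.4, 68.1 and 74.9 CPM (−0.52, SE 0.11, edgeR adjusted p = 0.0083). In both, the mice did not overlap.

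Among the effectors, 3 of the 4 with the smallest p-values fell. Ocrl, an inositol 5-phosphatase that binds several Rabs and is mutated in Lowe syndrome, was at 45.6, 70.7, 99.2 and 79.5 CPM in floxed mice against 6.46, 1.23, 3.73 and 2.71 CPM in knockout mice. It fell 23.8-fold (log2 −4.57, SE 0.48, edgeR adjusted p = 0.00041). Rilpl1, which binds Rab8 and Rab10, fell from 15.4 ± 5.71 to 1.36 ± 0.553 CPM (−3.49, SE 0.44, edgeR adjusted p = 0.00087). Rims2, a Rab3 effector of regulated exocytosis, fell from 25.8 ± 4.77 to 5.66 ± 2.12 CPM (−2.22, SE 0.30, edgeR adjusted p = 0.0012). In the other direction Appl1, an effector of Rab5 on early endosomes, rose from 278 ± 18.7 to 400.4 ± 25.4 CPM (0.49, SE 0.08, edgeR adjusted p = 0.0027). In all, 8 of 54 tested effectors rose and 6 fell (median −0.01). The mice of the genotypes did not overlap for any of the 14 regulators and effectors named by rule, and each kept its call in all 14 alternative fits. These genes were named for the smallest p-values in the edgeR test, so both traits largely follow from that choice and add no support. Over all tested genes, the knockout mice lay all above the floxed mice for 16.0% and all below for 15.0%.

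Over the 4 lists of regulators and effectors together, 21 of 143 tested genes rose and 14 fell, shares of 14.7% and 9.79% beside the 14.4% and 13.2% of all tested genes. Among other small GTPases, 3 of 24 tested members of the Arf family rose and 1 fell, and 1 of 26 of the Ras family rose and 3 fell by the edgeR test. Their median log2 fold changes were 0.06 and −0.14. Whether the Rabs differ from these families was not tested, since the Rabs were picked for this contrast.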

How the data were processed

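Each oocyte was sequenced as its own library. Per the labels' protocols, RNA was isolated with Trizol and cDNA came from a SMARTer Ultra Low Input kit, which amplifies by PCR, has no molecular identifiers and loses the strand. As deposited by the authors, the values are raw read counts, whole numbers for 16614 genes in all oocytes, without normalization. The submitters' processing notes name STAR and the mm10 build. Neither these notes nor the labels name the counting tool or its handling of reads that match several genes. Between transcripts of Rab GTPases, 26 of 1596 pairs shared an exact stretch of 25 bases and none a stretch of 50.

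Oocyte counts were summed per mouse (4 floxed, 4 knockout) and tested in edgeR 4.0.16 (R 4.3.3): TMM scaling, filterByExpr with a minimum count of 10, a robust quasi-likelihood fit, and Benjamini-Hochberg adjustment over 15029 genes at 0.05. The biological coefficient of variation was 35.4%. For 150 pairs of oocytes from the same mouse, chi-square values of 5.40 to 28.4 for each degree of freedom showed no copies of 1 library. DESeq2 1.42.0 and limma 3.58.1 served as alternatives, beside RLE scaling, no filter, each mouse left out, a replicate block, and both mice numbered 1 left out. The edgeR step was tested on simulated data. A further list of small GTPases is not reported here. PCR copies are not independent molecules, so counts of single oocytes carry more than counting error.

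Levels were divided by the longest transcript in GENCODE M21, which all 63 rows matched through RefSeq accessions. A 3′ untranslated region runs from the annotated stop codon to the transcript end. The log scale for the spread used a pseudocount of 1.

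The members, the lists of regulators and the tests were chosen with earlier results of these data known. Values per mouse are given for members called whose mean was at least 10 CPM and whose log2 fold change was at least 1, for the 10 highest per length, and for Rab11a, Rab11b, Rab3a, Rab27a, Rab5a, Rab6a, Rab8a and Rab7. In each regulator list the called genes with the 4 smallest p-values at most are named. Rab34, Rab36, Rab20, Rab37, Rab23, Rab25, Rab29 and Rab35 were given the same detail after their values were seen.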

Additional observations from a re-analysis of the deposited data

Results flagged for a closer look

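Values of the 52 tested Rab GTPases and of their sum were screened in the 4 mice of each genotype for a mouse that stood apart from the other 3 (Dixon's criterion at the 95% level, from the gap to the nearest mouse as a share of the whole range). Of 106 groups of 4 mice, 12 had such a mouse. Chance flags about 1 in 20 groups, and mouse 1 accounted for 9 of the 12.

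In floxed mouse 1 the sum of the family was high at 3832 CPM (the other 3 floxed mice: 3124 to 3237 CPM), and in knockout mouse 1 at 3704 CPM (the other 3: 3096 to 3188 CPM). Floxed mouse 1 was also high for Rab28 at 3.26 CPM (others 1.05 to 1.28), Rab22a at 126 CPM (others 73.4 to 77.7), Rab10 at 169 CPM (others 127 to 129) and Rab5a at 20.1 CPM (others 6.49 to 7.93). The single oocyte of knockout mouse 1 was high for Rab24 at 25.9 CPM (others 4.89 to 6.85), Rab4a at 101.8 CPM (others 41.9 to 49.2) and Rab6b at 2.31 CPM (others 0 to 0.0877).

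The remaining 3 were Rab30 in knockout mouse 3 at 9.55 CPM (others 4.85 to 5.43), Rab29 in floxed mouse 3, low at 9.02 CPM (others 10.2 to 10.4), and Rab7b in floxed mouse 4 at 2.42 CPM (others 0.204 to 0.551).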

How the results depend on the processing

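No called Rab GTPase reversed in the 14 alternative fits. Over the fold changes of the 52 tested Rab GTPases, 651 values kept their side of the threshold or moved by less than the spread between mice, 46 lost a call, 22 gained a call and 9 moved further. Leaving out 1 mouse gave 12 to 26 of the 63 rows called (22 with all mice), 7 to 16 Rab GTPases higher (14), 4 to 9 lower (6), 5 to 14 exchange factors (9), 4 to 12 GTPase-activating proteins (10), 9 to 15 effectors (14), 3 to 7 of the Arf (4) and 3 to 8 of the Ras family (4). Without mouse 1 of both genotypes, 18 exchange factors, 22 effectors, 10 Arf and 9 Ras genes were called. DESeq2 called 18 exchange factors and 7 Arf genes. The cause was not tested.

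The replicate block called 16 Rab GTPases higher and 8 lower, 18 exchange factors, 7 Arf and 7 Ras genes, and 5823 of all genes in place of 4148. Deviations of mice with the same number correlated at 0.316, −0.004, 0.248 and 0.180, and only mice 1 and 3 matched their own number best, so the numbers were not taken as pairs.

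The median spread between knockout oocytes was 0.306 after thinning and 0.262 with a pseudocount of 5 (0.283 without either). Fold changes of Rab34, Rab20 and Rab40b were smallest with limma on log2(CPM + 1), a scale that understates changes of low genes (2.98, 1.37 and 1.09). The 5 members that were not tested had too few counts for any statement on genotype.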
